A study of Mus musculus with 6 samples.

Results

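The proteasome genes measured here are the numbered subunits and partners of the Psma, Psmb, Psmc, Psmd, Psme, Psmf and Psmg families, without the immune subunits Psmb8 and Psmb9, together with the transcription factor gene Nfe2l1 and the assembly factor gene Pomp. They were chosen by name, with no use of their values, and each gene is represented by the probe set with the highest mean of those that carry a single gene symbol. Of 48 genes that this choice covers, 45 were measured among 17720 genes in all, and Psma2, Psmb2 and Psme2 were not analysed here. The 45 comprise 15 subunits of the core particle, 17 subunits of the regulatory particle and 13 other genes (assembly chaperones, alternative activators, an inhibitor and Nfe2l1). RNA was taken from sorted mouse adipocytes, with 1 array per sample, 6 arrays and 3 groups of 2. The marrow-derived group held bone marrow progenitor-derived adipocytes, sorted by flow cytometry out of the gonadal adipocytes of marrow transplant recipients; donor cells were marked by green fluorescent protein (GFP) in replicate 1 and by beta-galactosidase (LacZ) in replicate 2. The white group held gonadal white adipocytes and the brown group held adipocytes from the brown fat between the shoulder blades (intrascapular, in the labels). No drug or diet is named for any group, and strain, age and sex are not given in the labels used here. Each sample pooled RNA from at least 6 sorts of about 5000 adipocytes, and the RNA was amplified before labelling. The labels call the replicates biological without saying how animals were divided between them, so the p-values reflect spread among these samples, part of which may be technical.

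The proteasome degrades proteins that carry ubiquitin chains. Its core particle is a barrel of stacked rings: alpha subunits form the outer rings and the gate, and beta subunits form the inner rings, where Psmb5, Psmb6 and Psmb7 carry the proteolytic sites. The regulatory particle caps the barrel, binds ubiquitin chains, removes them and threads the substrate inward with a ring of ATPases. In immune cells and under interferon-gamma, Psmb9, Psmb10 and Psmb8 take the places of Psmb6, Psmb7 and Psmb5. NFE2L1 is a transcription factor anchored in the endoplasmic reticulum that raises proteasome genes when proteasome capacity falls short, and in brown adipocytes it is known for sustaining proteasome activity during cold exposure.

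Values are log2 expression values normalized by the submitters, and differences between groups are on that log2 scale. A value after ± beside a difference is the standard error from limma, a linear model fitted over all genes, with n = 2 arrays per group. A gene was called when its limma p, adjusted over all genes by the method of Benjamini and Hochberg, was under 0.05. Levels of different genes come from different probes and are not set against each other. Of the 45 genes, 42 lay above 7.42, the median level over all genes, and Psma3, Psma8 and Psmb11 lay below it, near the dim end of the arrays.

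Markers of the labelled cell types were present, as were markers of other cell types, some of which differed between groups. Adipoq, the adipocyte hormone adiponectin, read 12.7 on the GFP array, 11.86 on the LacZ array, 13.22 and 13.24 in white and 13.01 and 13.15 in brown adipocytes. Ucp1, the uncoupling protein of brown fat, read 13.58 and 13.53 in brown adipocytes and between 4.84 and 7.68 on the other arrays. Of 12 adipocyte markers, 5 were called lower in marrow-derived than in white and 3 than in brown adipocytes, and the LacZ array was the lowest of the 6, with a median deviation of -1.46 from each marker's mean against -0.28 on the GFP array. Of 11 progenitor and fibroblast markers, 3 (27.3%) were called higher than in white and 6 (54.5%) than in brown, against 12.2% and 8.71% of all genes. Of 7 smooth muscle and pericyte markers, 3 (42.9%) were called higher in each of these 2 comparisons, beside the same shares of all genes. All 11 genes of a dissociation stress list lay above white on average, 10 without overlap (90.9%, against 28.5% of all genes) and 3 called (27.3%). Against brown limma called 0 of them. At an unadjusted p under 0.05, which 17.5% and 18.5% of all genes reached, 0 were higher and 2 lower than in brown. The part of these differences in the proteasome values was not tested. All 12 endothelial markers were called higher in marrow-derived than in white adipocytes and 2 (16.7%) than in brown, against 12.2% and 8.71% of all genes. The log2 of their summed level was 15.2 and 15.67 in marrow-derived, 12.33 and 11.15 in white and 14.83 and 14.42 in brown adipocytes. For 15 macrophage markers, none called between marrow-derived and white and 1 called higher in marrow-derived than brown, the same sum was 16.08 on the GFP array, 13.91 on the LacZ array, 16.05 and 15.0 in white and 14.06 and 13.36 in brown adipocytes. No marker was listed at 0, which values of this kind do not reach. In such samples fewer cells of a type and less RNA per cell cannot be told apart.

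The proteasome genes differed little between the 3 adipocyte types. The median over the 45 genes of the unsigned log2 difference was 0.32 between marrow-derived and white, 0.3 between marrow-derived and brown and 0.19 between white and brown adipocytes, against 0.45, 0.44 and 0.32 over all genes. In the comparison of marrow-derived with white adipocytes, 7 of 45 genes (15.6%) were called lower and 1 (2.22%) was called higher, where 13.6% and 12.2% of all genes were called in these directions. The share called lower is thus close to the background. Of the 42 genes above the median level, 16.7% were called lower and 2.38% higher, where 19.1% and 16.5% of all genes above that level were called. Against brown adipocytes 4 genes (8.89%) were called lower and 2 (4.44%) higher, with backgrounds of 11.7% and 8.71% (16.4% and 10.6% above the median level). Between white and brown adipocytes limma called 0 genes higher and 0 lower, where 3.87% and 5.34% of all genes were called, and 1 gene, Psma8, was higher and 0 lower at an unadjusted p under 0.05, which 12.8% and 13.3% of all genes reached. The comparisons that involve marrow-derived adipocytes share those 2 arrays.

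**Figure D1:**
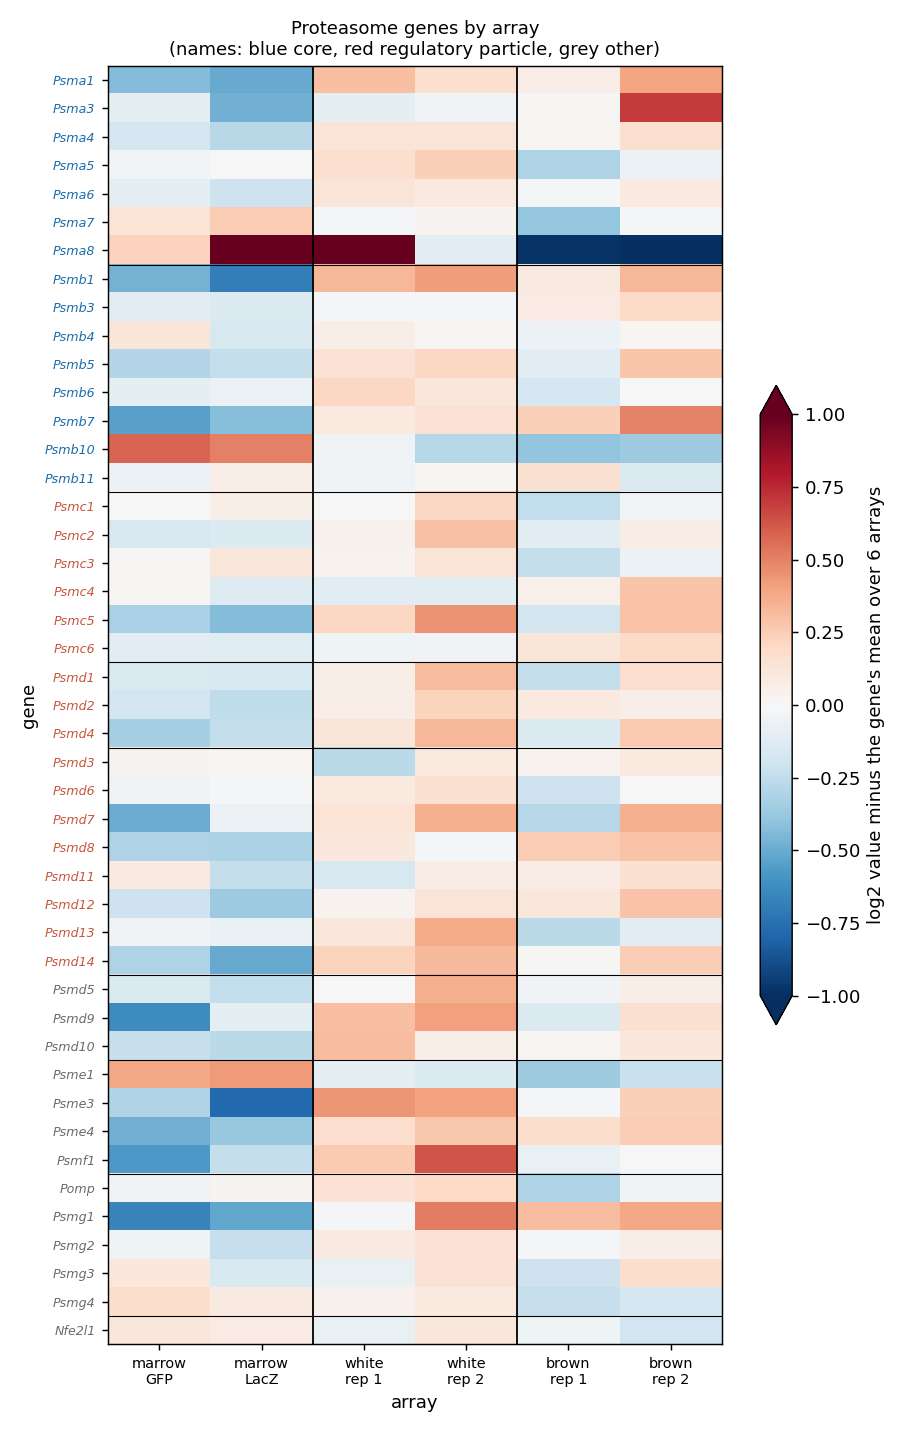
Log2 value of each of the 45 proteasome genes (rows, in the order of their roles) on each of the 6 arrays (columns), minus that gene's mean over the arrays; red is above and blue below the mean, and the colour scale ends at -1 and 1. Most rows are pale, while Psmb10 and Psme1 are red and Psmb1, Psmb7 and Psmg1 blue on both marrow-derived arrays.

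Over all 45 genes, called or not, signs were uneven. The log2 difference between marrow-derived and white adipocytes was below 0 for 36 of 45 genes (80.0%, against 55.6% of all genes), with a median of -0.26 against -0.07 over all genes. Both marrow-derived arrays lay below both white arrays for 31 genes (68.9%), an order that 35.8% of all genes showed, and above them for 3 genes (6.67%, against 28.5%). Against brown adipocytes the difference was below 0 for 30 genes (66.7%, against 48.3% of all genes), with a median of -0.21 against 0.02. The arrays did not overlap for 25 genes lower (55.6%, against 32.0%) and 11 higher (24.4%, against 33.0%). Between white and brown adipocytes 34 differences were above 0, with a median of 0.14 against 0.02 over all genes. Here the 16 genes whose white arrays lay above both brown arrays made up 35.6% of the 45, close to the 32.4% among all genes, and 7 genes (15.6%, against 29.7%) had white arrays below both brown arrays. Over the 45 genes, the median unsigned difference between the 2 arrays of a group was 0.1 in marrow-derived, 0.1 in white and 0.17 in brown. It was 0.28, 0.23 and 0.21 over all genes, and 0.26, 0.22 and 0.18 over all genes above the median level. The 45 genes were thus tighter within pairs in marrow-derived and white adipocytes, and close to the background in brown. In brown the core subunits stood at 0.26 and the regulatory subunits at 0.19.

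Core and regulatory particle did not separate. Between marrow-derived and white adipocytes the median log2 difference was -0.22 over the 15 core subunits and -0.32 over the 17 regulatory subunits, a gap of 0.09. Against brown adipocytes the medians were -0.19 and -0.23, a gap of 0.04, and between white and brown adipocytes they were 0.07 and 0.17, a gap of -0.1. On single arrays the same gap, taken from each gene's deviation from its own mean, ran from -0.11 on white replicate 2 to 0.11 on brown replicate 1, and its pooled standard deviation within groups was 0.11. All 3 gaps are therefore within the spread between replicate arrays. Without white replicate 2 the gap between marrow-derived and white turned to -0.09 and that between white and brown to 0.02. Between marrow-derived and white adipocytes, single core subunits ran from -0.96 (Psmb1) to 0.71 (Psmb10) and regulatory subunits from -0.7 (Psmc5) to 0.11 (Psmd3).

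**Figure D2:**
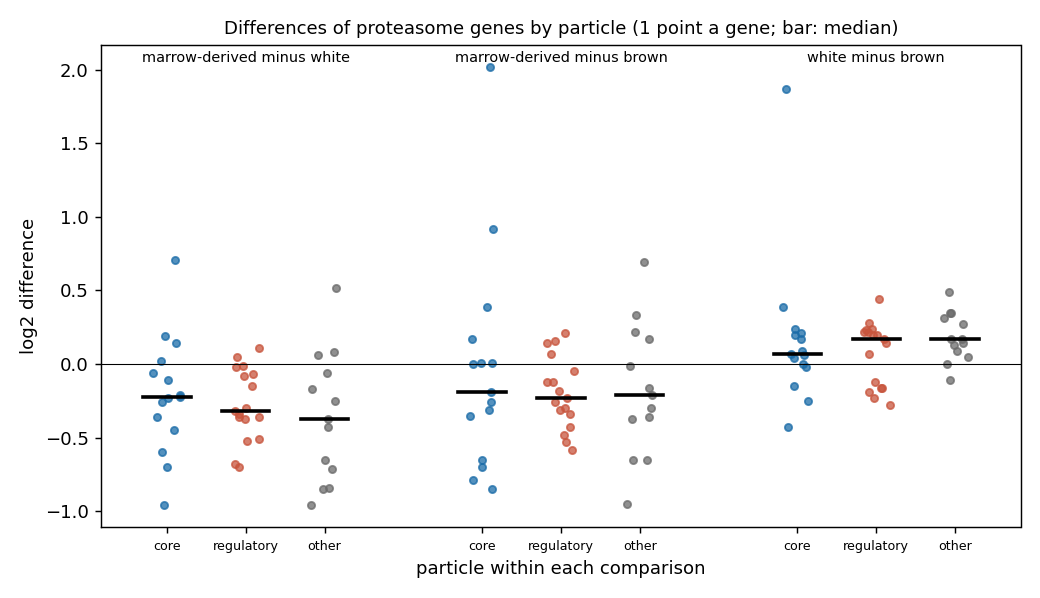
Log2 differences of the 45 genes in the 3 comparisons (blocks from left to right), split into core subunits (blue), regulatory subunits (red) and other genes (grey); each point is a gene and each bar the median of its set. The medians of core and regulatory subunits lie within 0.1 of each other in every comparison, and the highest points are Psmb10, against white, and the dim gene Psma8, against brown adipocytes.

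Among the catalytic subunits of the core, the inducible Psmb10 and the constitutive Psmb7, which occupy the same place in the ring, changed in opposite directions between marrow-derived and brown adipocytes. Psmb10 read 11.63 and 11.55 in marrow-derived, 11.01 and 10.76 in white and 10.65 and 10.69 in brown adipocytes. The marrow-derived arrays lay above all 4 others. Psmb10 was 1.63-fold higher than in white (log2 difference 0.71 ± 0.17, limma adjusted p = 0.034) and 1.89-fold higher than in brown adipocytes (0.92 ± 0.17, adjusted p = 0.0213), and white and brown differed by 0.21 ± 0.17 (adjusted p = 0.491). Psmb7 read 11.11 and 11.23 in marrow-derived, 11.75 and 11.8 in white and 11.89 and 12.15 in brown adipocytes, so that its order was the reverse. It was 1.8-fold lower than in brown (-0.85 ± 0.17, adjusted p = 0.0276), while the difference from white did not pass (-0.6 ± 0.17, adjusted p = 0.0563). The difference for Psmb10 exceeded that for Psmb7 by 1.31 on the log2 scale against white and by 1.77 against brown adipocytes.

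The other catalytic pairs had the same signs for the inducible member. Psmb8, the counterpart of Psmb5, read 11.35 and 11.17 in marrow-derived, 10.35 and 9.67 in white and 10.13 and 10.32 in brown adipocytes. It was 2.38-fold higher than in white (1.25 ± 0.27, limma adjusted p = 0.0255) and stood at 1.03 ± 0.27 against brown (adjusted p = 0.0502). Psmb9, the counterpart of Psmb6, read 11.05 and 11.09 in marrow-derived, 10.03 and 9.27 in white and 10.24 and 10.15 in brown adipocytes. It was 2.68-fold higher than in white (1.42 ± 0.28, adjusted p = 0.0201) and at 0.88 ± 0.28 against brown (adjusted p = 0.0837). Both genes lie outside the 45 and were on the list of related genes. The constitutive Psmb5, with 11.86 and 11.91 in marrow-derived, 12.3 and 12.36 in white and 12.05 and 12.43 in brown adipocytes, did not pass in any comparison (-0.45 ± 0.19, adjusted p = 0.15 against white, and -0.35 ± 0.19, adjusted p = 0.246 against brown), although both marrow-derived arrays were below all 4 others. Psmb6 read 12.34 and 12.38 in marrow-derived, 12.64 and 12.55 in white and 12.27 and 12.44 in brown adipocytes, with differences of -0.23 ± 0.16 from white (adjusted p = 0.354) and 0.01 from brown, where the 95% interval ran from -0.4 to 0.41.

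**Figure D3:**
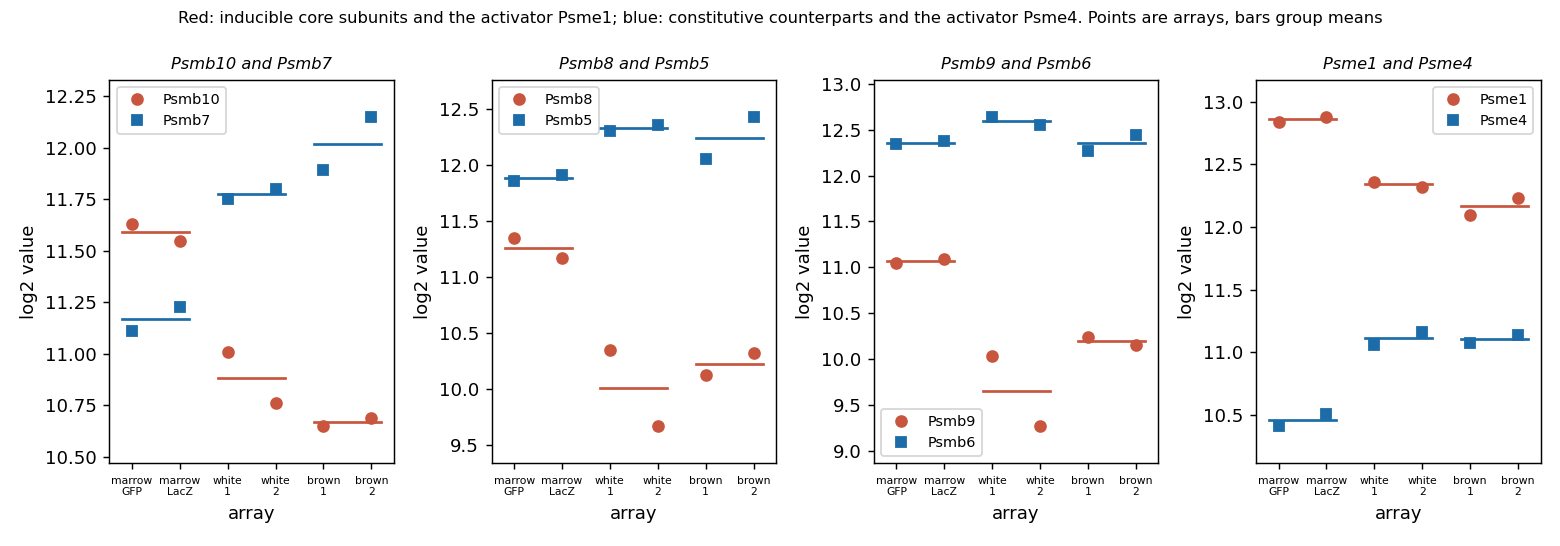
Log2 values on each array (points) and group means (bars) of the inducible core subunits Psmb10, Psmb8 and Psmb9 and the activator Psme1 (red) with the constitutive subunits Psmb7, Psmb5 and Psmb6 and the activator Psme4 (blue); each panel has its own axis, and heights of different genes are not comparable. On both marrow-derived arrays every red gene lies above all white and brown arrays, while Psmb7, Psmb5 and Psme4 lie below them.

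Cell type markers can be set beside these values. The GFP and LacZ arrays had macrophage sums of 16.08 and 13.91, and there Psmb10 read 11.63 and 11.55, Psmb8 11.35 and 11.17 and Psmb9 11.05 and 11.09. In the white pair, with macrophage sums of 16.05 and 15.0, all 3 genes were higher on replicate 1: Psmb10 read 11.01 and 10.76, Psmb8 10.35 and 9.67 and Psmb9 10.03 and 9.27. For 14 markers of other leukocytes the log2 sum was 12.04 on the GFP array, 9.08 on the LacZ array, 12.1 and 11.02 in white and 9.92 and 9.58 in brown adipocytes. The other leukocyte and endothelial sums, like the macrophage sum, were higher on white replicate 1 than on white replicate 2. The endothelial sum was highest in marrow-derived, intermediate in brown (14.83 and 14.42) and lowest in white adipocytes (12.33 and 11.15). Psmb9 had the same order of groups, while Psmb10 was lower on both brown arrays than on both white arrays and Psmb8 overlapped between white and brown. The part of macrophage, other leukocyte or endothelial RNA in the higher inducible subunits was not tested.

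To show the promoters of genes named here, RefSeq promoter windows of build GRCm38.p6 (250 bases before to 50 after each start) were searched for the antioxidant response element, the letters to which NFE2L1 binds with small Maf proteins, written TGACNNNGC, on both strands. Windows were found for 38 of the 45 genes, and 6 of them (15.8%) held the element, which were Psmb5, Psmb6, Psmc6, Psmd9, Psmd12 and Psme4, against 14.0% of all genes with a window, so the share is close to the background. A stricter form within it, TGACTCAGC, was found in 0 of 38 and in 0.503% of all genes, and CCAAT in 13 of 38 (34.2%) against 41.1%. The core of the interferon-stimulated response element, GAAANNGAA, was added after the values of Psmb10 and Psme1 were seen. It was in 8 of 38 windows (21.1%, against 9.76% of all genes), among them Psme1 but not Psmb10. The other holders were Pomp, Psmb3, Psmb4, Psmc2, Psmd4, Psmd9 and Psmg4. Their differences from white were -0.17, -0.11, -0.06, -0.32, -0.51, -0.71 and 0.06 in that order, and limma called none of them in any comparison. A link between this motif and expression was not tested. The gamma-activated sequence TTCNNNGAA was in 2 of 38 (5.26%, against 9.55%), which were Psmd2 and Psmg1. The stretches below run 5′ to 3′ on the strand of the gene from 170 bases before to 30 after the start, for the catalytic subunits Psmb5 and Psmb6 and for the activators Psme4 and Psme1, which differed in opposite directions; capitals mark the antioxidant response element in the first 3 and the interferon-stimulated element in Psme1. Positions count from the start site, and the matches begin at -47 in Psmb5 (chr14:54617966-54618165, minus strand), at -9 in Psmb6 (chr11:70525187-70525386, plus strand), at -7 in Psme4 (chr11:30771605-30771804, plus strand) and at 11 in Psme1 (chr14:55578324-55578523, plus strand). The letters match the spelled motif or its reverse complement and do not show binding.
Psmb5: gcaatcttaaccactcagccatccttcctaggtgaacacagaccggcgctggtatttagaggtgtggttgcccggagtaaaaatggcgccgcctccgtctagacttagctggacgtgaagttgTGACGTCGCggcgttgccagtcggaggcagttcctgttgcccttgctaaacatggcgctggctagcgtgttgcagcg
Psmb6: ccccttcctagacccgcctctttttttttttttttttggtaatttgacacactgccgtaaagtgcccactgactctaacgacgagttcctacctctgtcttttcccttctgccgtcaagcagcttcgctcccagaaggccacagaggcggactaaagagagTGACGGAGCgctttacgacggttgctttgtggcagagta
Psme4: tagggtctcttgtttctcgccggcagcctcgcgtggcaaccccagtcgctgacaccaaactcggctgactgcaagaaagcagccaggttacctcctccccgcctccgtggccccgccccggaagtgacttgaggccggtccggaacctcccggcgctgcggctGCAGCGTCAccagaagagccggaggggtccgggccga
Psme1: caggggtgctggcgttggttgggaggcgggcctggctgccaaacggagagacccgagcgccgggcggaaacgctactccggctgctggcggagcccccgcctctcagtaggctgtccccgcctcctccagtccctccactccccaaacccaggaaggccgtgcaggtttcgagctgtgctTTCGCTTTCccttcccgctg

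All 6 genes with an antioxidant response element had both marrow-derived arrays below both white arrays. That order was shown by 31 of the 45 members (68.9%) and by 35.8% of all genes. Against brown, the arrays of Psmb6 and Psmd9 overlapped, while marrow-derived arrays lay below for Psmb5, Psmc6, Psmd12 and Psme4. A link between the element and this order was not tested. Psme4 was called lower in marrow-derived adipocytes in both comparisons, as given below, while Psmb5, Psmb6, Psmc6, Psmd9 and Psmd12 passed in none.

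Of the structural beta subunits, which shape the ring without a proteolytic site, Psmb1 differed most. It read 8.7 and 8.48 in marrow-derived, 9.5 and 9.59 in white and 9.26 and 9.5 in brown adipocytes, with no overlap between marrow-derived and the other arrays. It was 1.94-fold lower than in white (-0.96 ± 0.18, limma adjusted p = 0.0182) and 1.73-fold lower than in brown adipocytes (-0.79 ± 0.18, adjusted p = 0.0362). A dimmer probe set of Psmb1, with a mean level of 6.34, differed by -0.45 ± 0.19 from white and -0.32 ± 0.19 from brown, without passing. Psmb3 and Psmb4 had differences from -0.26 to 0.06 in the 3 comparisons on their brightest probe sets and passed in none. Their second probe sets differed more from white (-0.49 ± 0.19 for Psmb3 and -0.33 ± 0.17 for Psmb4) and from brown (-0.65 ± 0.19 and -0.22 ± 0.17), without passing. Psmb11, the subunit of the thymus proteasome, is not one of these structural subunits. Its values stayed between 2.76 and 3.06 on all 6 arrays, at the dim end of the scale.

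In the alpha ring 1 of 7 genes (14.3%) was called lower against white, close to the 13.6% among all genes. Against brown 0 were called, where 11.7% of all genes were called lower and 8.71% higher. Psma1 read 11.01 and 10.94 in marrow-derived, 11.74 and 11.61 in white and 11.51 and 11.84 in brown adipocytes. The marrow-derived values were the lowest, 1.63-fold below white (-0.7 ± 0.18, limma adjusted p = 0.0445), and the same size of difference from brown fell just outside the threshold (-0.7 ± 0.18, adjusted p = 0.0524). Psma4, Psma5, Psma6 and Psma7 had differences between -0.36 and 0.39 in the 3 comparisons and passed in none. Psma7 had the opposite sign to Psma1, with marrow-derived arrays at 11.82 and 11.94 above white (11.66 and 11.71) and brown (11.3 and 11.67). Psma8, which replaces Psma7 in the testis, read 5.49 and 6.48 in marrow-derived, 6.53 and 5.15 in white and 4.28 and 3.65 in brown adipocytes. Its differences from brown were the largest of all 45 genes but rest on low and scattered values (2.02 ± 0.57, adjusted p = 0.0646 for marrow-derived and 1.87 ± 0.57, adjusted p = 0.115 for white). The only single-symbol probe set of Psma3 lay between 3.55 and 4.73, so its differences carry little weight.

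The regulatory particle held 1 called gene among 17, lower against white (5.88%, where 13.6% of all genes and 19.1% of those above the median level were called lower), and 0 against brown, where 11.7% of all genes were called lower. At an unadjusted p under 0.05 in limma, 3 of the 17 were lower than in brown. Of all genes, 18.5% reached this, so the count is close to the background. Psmd14, the metalloprotease of the lid that cuts ubiquitin chains off the substrate, read 11.48 and 11.28 in marrow-derived, 12.01 and 12.11 in white and 11.8 and 12.03 in brown adipocytes. It was 1.6-fold lower in marrow-derived than in white (-0.68 ± 0.18, limma adjusted p = 0.0448), and the difference from brown did not pass (-0.53 ± 0.18, adjusted p = 0.0945). The ATPase ring, Psmc1 to Psmc6, was nearly level only in its median against white. That median difference was -0.08 against white, -0.18 against brown and 0.21 between white and brown adipocytes. Both marrow-derived arrays lay below both brown arrays for 4 of the 6 genes (66.7%, against 32.0% of all genes). They lay above them for 2 (33.3%, against 33.0%). Psmc5 stood apart in size, with 9.68 and 9.57 in marrow-derived, 10.21 and 10.45 in white and 9.82 and 10.29 in brown adipocytes, but did not pass (-0.7 ± 0.22, adjusted p = 0.0714 against white).

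In the base, the scaffold subunits Psmd1 and Psmd2 and the ubiquitin receptor Psmd4 had marrow-derived arrays below both white arrays, with differences of -0.34 ± 0.21, -0.37 ± 0.16 and -0.51 ± 0.2, and limma adjusted p from 0.128 to 0.297. Of the 8 lid subunits 7 had a difference below 0 against white on their brightest probe sets, and Psmd3 stood at 0.11 ± 0.19. For Psmd7 that difference was -0.52 ± 0.29 and did not pass. A dimmer Psmd7 probe set, with a mean level of 6.28, was called higher against white (0.85 ± 0.19, limma adjusted p = 0.026 over all probe sets). Another, at 5.86, stood at 0.3 ± 0.24 without passing. Psmd8 was the nearest to the threshold against brown adipocytes, with 11.8 and 11.79 against 12.36 and 12.39 (-0.58 ± 0.15, adjusted p = 0.0511). The base chaperones Psmd5, Psmd9 and Psmd10, which hold ATPases during assembly, had differences of -0.37 ± 0.19, -0.71 ± 0.24 and -0.43 ± 0.17 against white, and none passed.

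The alternative activators and the inhibitor PI31, encoded by Psmf1, held 3 of the 7 genes called lower against white. Psme3, a nuclear activator that opens the core without ubiquitin, read 9.81 and 9.33 in marrow-derived, 10.55 and 10.51 in white and 10.1 and 10.35 in brown adipocytes. It was 1.95-fold lower in marrow-derived than in white (-0.96 ± 0.22, limma adjusted p = 0.0313), and its second bright probe set differed by -0.99 ± 0.17 (adjusted p = 0.0131 over all probe sets) and by -1.17 ± 0.17 against brown (adjusted p = 0.011), where the brighter one did not pass (-0.65 ± 0.22, adjusted p = 0.0989). Psme4, a large activator linked to histone degradation, read 10.41 and 10.51 in marrow-derived, 11.06 and 11.16 in white and 11.07 and 11.14 in brown adipocytes. The 4 white and brown arrays lay within 0.1 of each other, and the marrow-derived arrays were 1.56-fold lower than either group (-0.65 ± 0.15, adjusted p = 0.0347 against white and 0.0413 against brown). Its other probe sets above the median level differed from white by -0.7 ± 0.17 (adjusted p = 0.0329 over all probe sets) and -0.85 ± 0.25 (adjusted p = 0.0609). Another 3 probe sets, with mean levels of 3.73 to 4.39, had differences above 0 that did not pass. Psmf1 read 7.65 and 7.99 in marrow-derived, 8.49 and 8.85 in white and 8.15 and 8.22 in brown adipocytes. It was called 1.8-fold lower against white (-0.85 ± 0.21, adjusted p = 0.0396) and stood at -0.37 ± 0.21 against brown (adjusted p = 0.282).

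Psme1, a subunit of the interferon-inducible activator ring, went the other way. It read 12.84 and 12.88 in marrow-derived, 12.36 and 12.32 in white and 12.1 and 12.23 in brown adipocytes. It was 1.61-fold higher than in brown (0.69 ± 0.15, limma adjusted p = 0.0346) and did not pass against white (0.52 ± 0.15, adjusted p = 0.0622), although the arrays did not overlap. Psmb10, against white and brown, and Psme1, against brown only, were thus the members called higher in marrow-derived adipocytes. These calls were 2.22% and 4.44% of the 45 genes, against 12.2% and 8.71% of all genes. Both genes, like Psmb8 and Psmb9, are known to be induced by interferon-gamma. Psmb8 and Psmb9 were called against white only, and a part of interferon in these values was not tested.

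**Figure D4:**
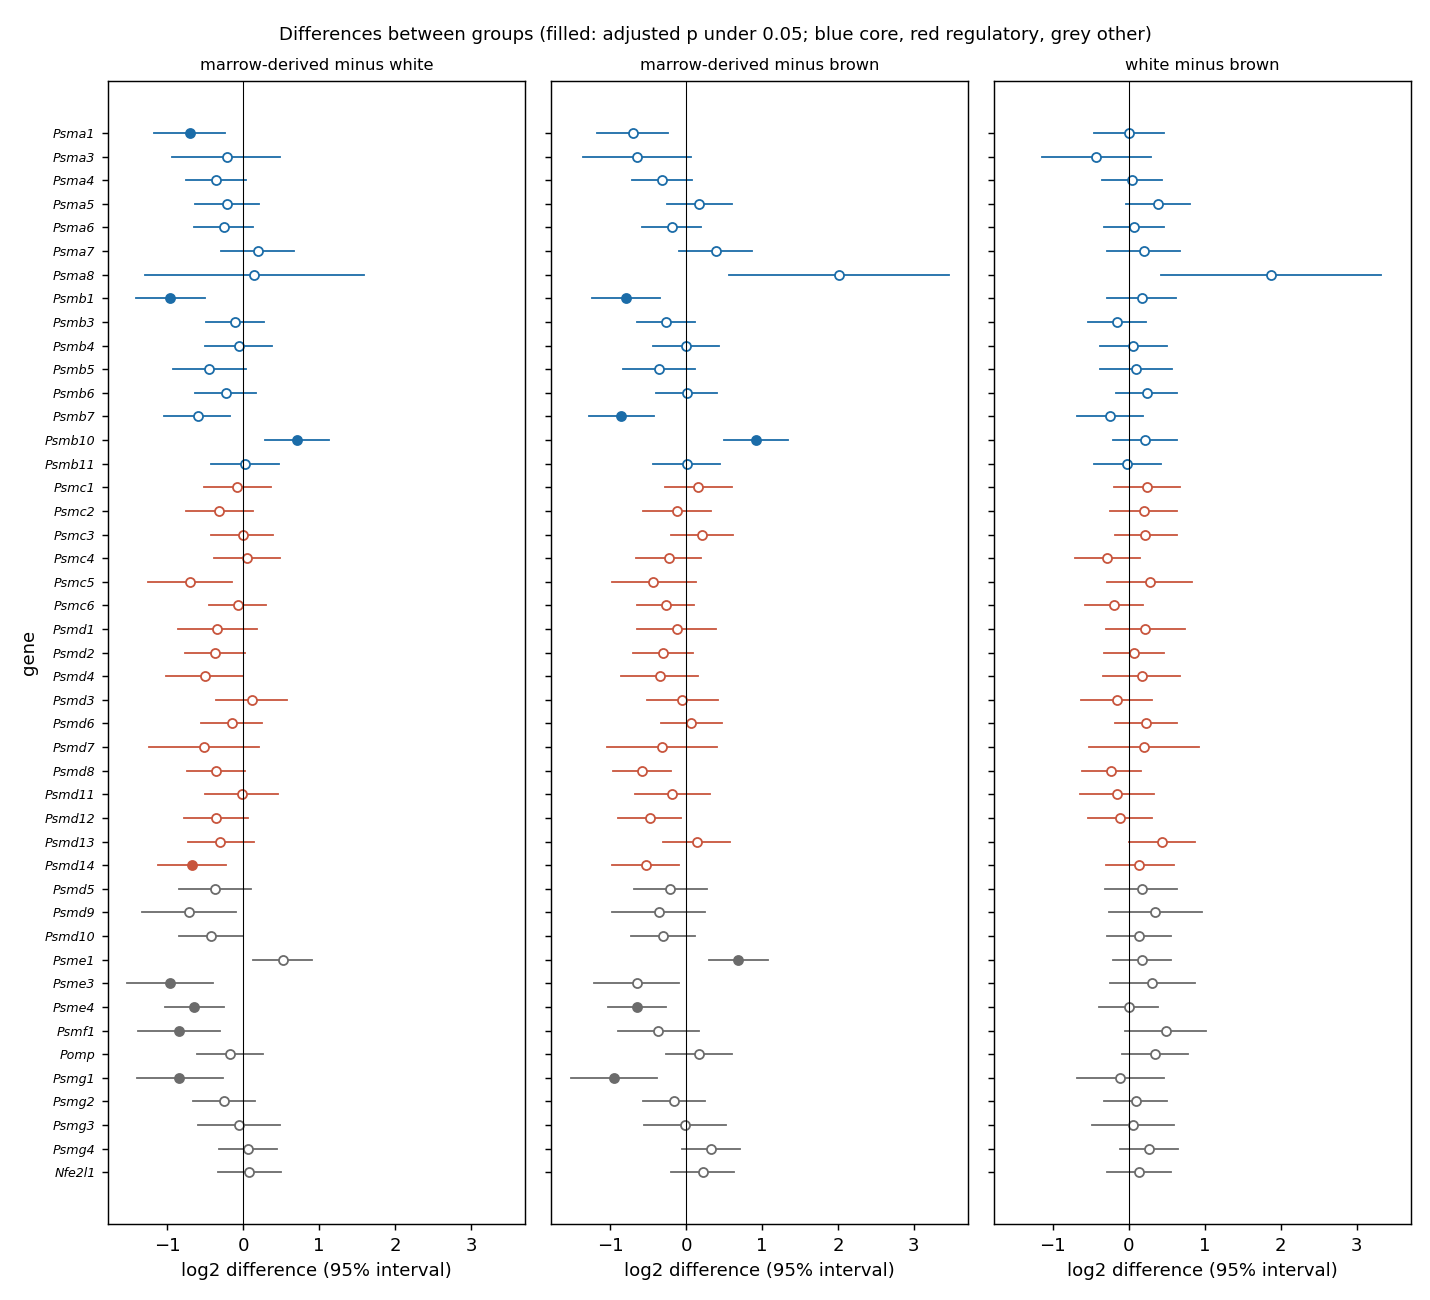
Log2 differences (points) with 95% intervals from the limma fit (lines) for the 45 genes in the 3 comparisons, core subunits in blue, regulatory subunits in red and others in grey; filled points passed an adjusted p of 0.05. In the right panel, white minus brown, no point is filled, and in the others most intervals span 0.

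Of the 5 factors that build the core, 1 (20.0%), Psmg1, was called lower against white and against brown, where 13.6% and 11.7% of all genes were. Psmg1, which pairs with Psmg2 to seed the alpha ring, read 8.56 and 8.71 in marrow-derived, 9.21 and 9.74 in white and 9.54 and 9.62 in brown adipocytes. It was 1.79-fold lower than in white (-0.84 ± 0.23, limma adjusted p = 0.048) and 1.93-fold lower than in brown (-0.95 ± 0.23, adjusted p = 0.0408). On its brightest probe set, its partner Psmg2 differed by -0.25 ± 0.16 and -0.16 ± 0.16 and did not pass. Another Psmg2 probe set, with a mean level of 7.19, was called lower against white (-0.82 ± 0.18, limma adjusted p = 0.0246 over all probe sets). Against brown that probe set did not pass (-0.47 ± 0.18, adjusted p = 0.128). Psmg3 and Psmg4, the other chaperone pair, had differences between -0.06 and 0.33. Pomp, which joins the rings into a barrel and is then degraded, read 12.07 and 12.13 in marrow-derived, 12.25 and 12.3 in white and 11.79 and 12.07 in brown adipocytes. Its differences of -0.17 ± 0.17 from white, 0.17 ± 0.17 from brown and 0.35 ± 0.17 between white and brown had adjusted p of 0.519, 0.514 and 0.28.

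Nfe2l1 was level across the groups. It read 12.05 and 12.02 in marrow-derived, 11.86 and 12.05 in white and 11.89 and 11.74 in brown adipocytes, and only marrow-derived and brown arrays did not overlap. The limma differences were 0.08 ± 0.16 against white (95% interval -0.33 to 0.5, adjusted p = 0.768), 0.22 ± 0.16 against brown (-0.2 to 0.63, adjusted p = 0.395) and 0.14 ± 0.16 between white and brown (-0.28 to 0.55, adjusted p = 0.653). The arrays read transcript, and NFE2L1 is largely controlled by processing and degradation of the protein, which was not measured.

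In the comparison of white with brown adipocytes the nearest members to a call were Psma8, above, and Psmd13, a lid subunit. Psmd13 read 10.16 and 10.42 in white and 9.78 and 9.93 in brown adipocytes (0.44 ± 0.17, limma adjusted p = 0.193). Psmf1 (0.49 ± 0.21, adjusted p = 0.231) and Psma5 (0.39 ± 0.17, adjusted p = 0.228) also had white arrays above both brown arrays. For 42 members above the median level, differences ran from -0.28 to 0.49, so a difference of 2-fold or more was seen in none of them.

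Related genes of the ubiquitin system, from a list of partners, shuttles and regulators, were read from the same fit. Of 33 measured genes, including Psmb8 and Psmb9, 5 were called higher (15.2%, against 12.2% of all genes) and 5 lower (15.2%, against 13.6%) in marrow-derived than in white, and 0 higher (against 8.71%) and 5 lower (15.2%, against 11.7%) than in brown. Between white and brown adipocytes 0 and 0 were called, against 3.87% and 5.34% of all genes. There 4 were higher and 0 lower at an unadjusted p under 0.05 in limma, which 12.8% and 13.3% of all genes reached. Against brown, 9 were higher at an unadjusted p under 0.05, which 17.5% of all genes reached in that direction and 18.5% in the other. Ubqln1, a shuttle that carries ubiquitinated proteins to the proteasome, read 10.21 and 10.37 in marrow-derived, 11.51 and 11.68 in white and 11.29 and 11.46 in brown adipocytes. It was 2.47-fold lower than in white (-1.3 ± 0.17, adjusted p = 0.00792) and 2.12-fold lower than in brown (-1.09 ± 0.17, adjusted p = 0.0148). Its relative Ubqln4 was lower by -0.85 ± 0.15 (adjusted p = 0.0168) and -1.2 ± 0.15 (adjusted p = 0.00888), while Ubqln2 did not pass.

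The deubiquitinating enzymes that dock on the regulatory particle were lower too. Usp14, which trims ubiquitin chains at the proteasome, read 8.26 and 8.46 in marrow-derived, 9.59 and 9.35 in white and 9.78 and 9.73 in brown adipocytes. It was 2.17-fold lower than in white (-1.12 ± 0.18, limma adjusted p = 0.0117) and 2.64-fold lower than in brown (-1.4 ± 0.18, adjusted p = 0.00857), although its dimmest probe set differed from brown by 0.14. Uchl5, the second docking enzyme, differed by -0.73 ± 0.15 (adjusted p = 0.0251) and -0.71 ± 0.15 (adjusted p = 0.0323). Ufd1, a cofactor of the unfoldase p97, was lower by -0.73 ± 0.17 (adjusted p = 0.0302) and -0.85 ± 0.17 (adjusted p = 0.0246), and the unfoldase gene itself, Vcp, did not pass (-0.12 ± 0.17 and 0.19 ± 0.17).

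Of 11 genes that handle NFE2L1, pair with it or belong to related factors, 3 were called higher in marrow-derived than in white adipocytes (27.3%, against 12.2% of all genes). In the other direction 0 were called lower, against 13.6% of all genes. At an unadjusted p under 0.05 in limma 2 were lower, as were 3661 of the 17720 genes. Against brown 0 were called, and 4 were higher and 1 lower at an unadjusted p under 0.05 in limma, which 17.5% and 18.5% of all genes reached. Mafk, a small Maf protein with which NFE2L1 pairs on DNA, read 10.12 and 10.46 in marrow-derived, 9.27 and 9.07 in white and 9.64 and 9.43 in brown adipocytes (1.12 ± 0.2, adjusted p = 0.0163 against white). Keap1, the adaptor that marks the related factor NFE2L2 for degradation, differed by 0.87 ± 0.16 (adjusted p = 0.0172; its dimmest probe set by -0.86), and Fbxw7, a ubiquitin ligase subunit that targets NFE2L1, by 0.73 ± 0.17 (adjusted p = 0.0327). Ngly1, the enzyme that removes sugars from NFE2L1, did not pass (-0.3 ± 0.18, adjusted p = 0.285). The ubiquitin activating enzyme Uba6 did not pass either.

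The calls on the 45 genes sat near the threshold. With 1 array left out, limma called 0 to 2 genes lower and 0 higher in marrow-derived than in white, against 7 and 1 with all arrays; the count of lower genes was 2 without either marrow-derived array, 1 without white replicate 1 or either brown array and 0 without white replicate 2. Against brown the counts were 0 to 1 lower and 0 to 2 higher, against 4 and 2; 0 were lower without either marrow-derived or either brown array and 1 without either white array, and higher genes were 0 without the GFP array or either brown array, 1 without the LacZ array and 2 without either white array. The sign of each called gene was the same with each array left out.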

How the data were processed

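The deposited values are log2 expression for every probe set on every array. The submitters' processing notes list RMA (Robust Multi-array Average) and Partek, without versions or roles. RMA subtracts background, equalizes array distributions and summarizes probes. The log base was taken from the values (1.67 to 13.97, array medians 5.46 to 5.72). RMA gives no detection calls, and values at either end of the scale understate differences.

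Of 43057 probe sets, 33565 had 1 gene symbol, 857 several and 8635 were unnamed here. Symbols are those of the platform annotation; 33376 of these probe sets matched RefSeq (GRCm38.p6) by gene ID and 0 symbols changed. Probe sets with several symbols were left out. Of a gene's probe sets, that with the highest mean over the arrays stood for it, which left 17720 genes.

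Group means of all 6 arrays were fitted gene by gene in R 4.3.3 using limma 3.58.1, with empirical Bayes moderation (3 residual and 2.35 prior degrees of freedom), two-sided tests and Benjamini-Hochberg adjustment over all genes. The fit was tested on simulated data. The number of arrays limits the precision. Every proteasome gene could be named; called members, Nfe2l1, Pomp, Psmb5, Psmb6, Psmb7 and Psmb10 were to be given in full, with up to 3 called genes of each related list. The genes and lists were chosen with earlier results of these data known. Alternatives covered array scaling, probe set choice, a filter on dim genes, the variance model, the arrays fitted, the replicate block and leaving out each array.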

Additional observations from a re-analysis of the deposited data

How the results depend on the processing

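The counts of called members changed with the model, and 0 of the 14 calls on members held under all 15 alternatives, while their signs held in all but Psme4. With all arrays, 1 member was higher and 7 lower in marrow-derived than in white, and 2 higher and 4 lower than in brown adipocytes. Array median centring gave 0 and 2 against white and 1 higher against brown, so the share of calls that were higher against white went from 12.5% to 0.0%; normalizing quantiles again gave 2 and 5 (28.6% higher). Keeping genes above the median level gave 2 higher against white, and a mean-variance trend gave 2 higher against white and 8 lower against brown. Fits of only the 2 groups compared gave 0 higher and 1 lower against white and 1 lower against brown, and a fit without moderation gave 0 and 0 against white and 1 higher and 2 lower against brown. The mean of a gene's probe sets gave 4 lower against white; the dimmest probe set gave 1 lower against white and 1 higher and 2 lower against brown. With these 2 choices the difference of Psme4 from white turned to 0.06 and 0.31, and with the dimmest probe set Keap1 turned to -0.86 against white and Usp14 to 0.14 against brown. For Psme4 the turn came from 3 probe sets with mean levels of 3.73 to 4.39, while its 3 probe sets above the median level differed from white by -0.65, -0.7 and -0.85; for Keap1 and Usp14 the cause was not tested. The replicate number as a block gave 0 higher and 3 lower against white, 1 higher and 2 lower against brown and 0 and 0 between white and brown; deviations of same-numbered arrays from their group means correlated at 0.205 for marrow-derived and white, -0.00376 for marrow-derived and brown and 0.277 for white and brown, so the numbers were not taken as pairs. Leaving out 1 array gave 0 higher and 0 to 2 lower against white, and 0 to 2 higher and 0 to 1 lower against brown. The count between white and brown stayed at 0 in both directions under all 15 alternatives. The gap between core and regulatory medians, 0.09 against white, was -0.07 with mean probe sets, -0.22 with the dimmest and -0.09 to 0.16 with 1 array left out. The gap of 0.04 against brown was -0.12 with the dimmest probe sets and -0.03 to 0.05 with 1 array left out, and that of -0.1 between white and brown was 0.1, 0.19 and -0.2 to 0.02. Of the related genes, the call of Ubqln1 against white held under all 15 alternatives.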

Other observations

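Other bright probe sets of the members mostly had the sign of the one used. Of 16 further probe sets above the median level, on 13 members, 15 had the same sign in marrow-derived minus white, 15 in marrow-derived minus brown and 12 in white minus brown, and 0 of those with the opposite sign were called in limma over all probe sets. Among dimmer probe sets, calls of the opposite sign were on Psmd7 against white (0.85 ± 0.19) and Psmd13 against brown (-1.09 ± 0.25, mean level 4.26). Dimmer probe sets called with the same sign were on Psmg2 and Psmf1 against white, and on Psmd9 and Psmf1 against brown. Psmd11, a lid subunit chosen here after its values were seen, had marrow-derived minus white at -0.02 ± 0.2 on its brightest probe set and at 0.14 ± 0.19, -0.24 ± 0.22 and -1.19 ± 0.29 on the others above the median level, of which the last was called (limma adjusted p = 0.0341).

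Sem1, the smallest lid subunit, and Zfand5, a ubiquitin-binding protein that activates the proteasome, had marrow-derived arrays above all others without passing in limma. Sem1 read 12.48 and 12.44 in marrow-derived adipocytes, against 11.9 to 12.18 on the other arrays (adjusted p = 0.131 against white and 0.105 against brown). Zfand5 read 12.84 and 12.73, against 12.52 and 12.39 in white and 12.37 and 12.3 in brown adipocytes (adjusted p = 0.192 and 0.104).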
